A study of Mus musculus with 22 samples.

Results

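The Zscan4 genes are a mouse family of nearly identical genes encoding proteins with a SCAN domain and zinc fingers. Its 5 counted members, Zscan4b, Zscan4c, Zscan4d, Zscan4e and Zscan4f, are followed here across Dux genotypes and a DNMT1 degrader in mouse embryonic stem (ES) cells. They were chosen by name: they are all the genes of that name among the 47729 of the counted annotation. No measured value entered that rule, but earlier results of these data were known when the family was chosen. Zscan4 is transcribed briefly in the 2-cell embryo, when the zygotic genome is first switched on, and again in the rare ES cells of a culture that pass through a 2-cell-like state. Its proteins are known for roles in telomere elongation and genome stability in ES cells. Dux, a double homeobox transcription factor encoded by a repeat cluster, lies upstream of this programme and binds next to Zscan4 genes. DNA methylation, which DNMT1 copies at each cell division, counts among the restraints on it.

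RNA was sequenced from ES cells grown in serum with LIF, and each of 22 libraries has a table of fragment counts per gene. In the untreated set, 3 libraries came from the line titled E14-chen (E14 here), 3 from Dux-KO clones (numbers 15, 22 and 52) and 4 from Dux n=1 clones (titled Duxnto1, numbers 17, 22, 31 and 40), both kinds made by CRISPR-Cas9 and read here as having no Dux and a single Dux copy. In the treated set, WT cells and the lines titled Dux-KO22 (KO22) and Dux-N22 (N22) received DMSO or GSK-3484862, given as a degrader of the DNMT1 protein, for 3 days, with 2 libraries in each of the 6 groups. KO22 and N22 are read as 1 clone each, so genotype and clone cannot be told apart there, and the labels give the dose once as 1 uM and once as 2 uM. The titles name no culture, day or batch, so every p-value rests on the spread among these samples alone, whether biological or technical.

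Library totals ran from 15803194 to 19427794 counts. Duxf3, the annotated Dux gene, had 0 to 5 counts in each untreated library, too few to check the labels of single libraries. The library labelled Dux-KO clone 22 in the untreated set had 5 Duxf3 counts, the highest of that set, against its label. The E14 libraries had 1, 0 and 0, so these counts did not follow the genotype labels in this set. The Dux-KO means, summed ratios, shares and counts of called genes are also given without the library labelled clone 22. Among treated libraries, KO22 had no Duxf3 count in 4 of 4, while GSK-3484862 gave 18 and 19 counts in WT cells and 11 and 13 in N22 cells. All 10 ES cell markers looked at were counted in every group. Summed ES marker levels were 6038 to 6494 CPM (counts relative to the library total) with DMSO and 4816 to 4941 with GSK-3484862, and the mitochondrial share of counts was 1.65% to 2.39% and 2.66% to 3.20%. The part of these shifts in the results was not tested. Fibroblast markers were counted for 6 or 7 of 10 genes in each DMSO group, with Dcn, Lum and Postn at 0 in all 3, and summed to 307 to 341 CPM. With GSK-3484862, 9 or 10 of 10 were counted and summed to 226 to 255 CPM. Of 8 trophoblast markers, 7 were counted in each DMSO group (Elf5 at 0) and 8 with GSK-3484862. Their sum with DMSO was 110 to 113 CPM in WT, 87.1 to 88.4 in N22 and 51.1 to 51.3 in KO22, and with GSK-3484862 it was 107 to 123 in WT, 118.5 to 118.8 in N22 and 77.5 to 82.8 in KO22. The part of either list in the Zscan4 differences was not tested.

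The 5 genes lie within 502 kb of chromosome 7 (GRCm38), and the coordinates given with each are those of its annotated gene. Zscan4b (ENSMUSG00000095339) is at chr7:10900740-10905050 on the minus strand, Zscan4c at chr7:11005722-11010547 on the plus strand, Zscan4d at chr7:11161374-11166182 and Zscan4e at chr7:11306426-11309847 on the minus strand, and Zscan4f at chr7:11397915-11402741 on the plus strand. Their counted exons cover 1754, 2299, 2295, 1518 and 2430 bases, in the order b to f. Of 7 other annotated genes between them or within 250 kb, 6 had 0 counts in every library. The remaining one, the gene model Gm6900, had 4 to 13 counts in each library, and its groups given GSK-3484862 held 5 to 10.

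RefSeq promoter sequences (GRCm38.p6) were at hand for 4 of the 5 members, and not for Zscan4e. The lines that follow give 130 bases of each, because they let the family's common control region and the Dux-type sequence be read directly. The capitals mark a TGATNNAATCA match, the core of the motif bound by Dux with its spacer relaxed to any bases, and a TATAAA box. Windows are chr7:10905032-10905161 (minus strand) for Zscan4b, chr7:11005611-11005740 (plus) for Zscan4c, chr7:11166164-11166293 (minus) for Zscan4d and chr7:11397804-11397933 (plus) for Zscan4f.
Zscan4b: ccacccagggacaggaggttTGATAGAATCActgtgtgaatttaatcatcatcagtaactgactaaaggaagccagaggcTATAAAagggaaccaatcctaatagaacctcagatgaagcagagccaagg
Zscan4c: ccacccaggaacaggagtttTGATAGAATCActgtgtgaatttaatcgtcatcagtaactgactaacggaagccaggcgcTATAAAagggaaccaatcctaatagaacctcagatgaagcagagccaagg
Zscan4d: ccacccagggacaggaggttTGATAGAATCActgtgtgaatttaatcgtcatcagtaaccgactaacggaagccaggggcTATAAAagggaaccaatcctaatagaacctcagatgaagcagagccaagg
Zscan4f: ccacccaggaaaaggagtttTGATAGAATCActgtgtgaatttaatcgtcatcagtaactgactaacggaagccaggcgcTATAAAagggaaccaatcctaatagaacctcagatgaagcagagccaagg

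Of the 130 positions, 122 were alike in all 4 windows, and pairs of windows were 94.6% (Zscan4b and Zscan4f) to 99.2% (Zscan4c and Zscan4f) identical. TGATNNAATCA, searched on both strands of the 250 bases before to 50 bases after each annotated start, was found in 4 of 4 member promoters, each time as TGATAGAATCA, and in 0.207% of 32851 RefSeq promoters (68). The form TGATTNAATCA, every match of which also matches TGATNNAATCA, was in 0 of 4 member promoters and in 0.0335% of all. The relaxed form was chosen after the member promoters had been read, so its count is a description. The match began between positions -125 and -91 and the TATAAA box between -65 and -31, counted from the annotated start, and TATAAA was found in 13.6% of all promoters. The transcripts of the 5 genes were as alike, at 96.63% (Zscan4b and Zscan4d) to 99.71% (Zscan4b and Zscan4e) identity in pairs.

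Because reads that map to several places were not counted, the values of single members depend on how much of each transcript is unique. Among stretches of 100 bases, 70.4% of the Zscan4d transcript occurred in no transcript of any other gene in GENCODE M21. The share was 27.2% for Zscan4c, 21.3% for Zscan4b, 15.9% for Zscan4e and 10.5% for Zscan4f. Every member value therefore leaves out an unknown number of reads, and levels are best compared within a member. Zscan4d, with the highest unique share, also had the most counts, but Zscan4b, with the fewest, had a higher unique share than Zscan4e or Zscan4f. The read length is not given in the sources used here. Over the 22 libraries the members collected 1362 counts for Zscan4d, 1014 for Zscan4c, 676 for Zscan4e, 464 for Zscan4f and 225 for Zscan4b.

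With DMSO, WT cells had low but readily counted Zscan4 levels. The 5 members summed to 4.72 and 5.92 CPM in the 2 WT libraries. In N22 the sums were 2.07 and 2.48 CPM, and in KO22 they were 0 in both libraries, where a count of 0 allows up to 0.0804 CPM over the group. The 3 genotypes did not overlap, but with 2 libraries each such a separation is weak, and its share over all genes was not counted. In bulk RNA, fewer cells expressing Zscan4 and less Zscan4 RNA per cell cannot be told apart. By counts, WT was 2.34 times N22 (95% counting interval 1.80 to 3.04) and at least 66.2-fold above KO22, and N22 was at least 28.4-fold above KO22. These intervals and floors reflect counting error and no other.

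After 3 days of GSK-3484862 the family was about an order of magnitude higher in WT and N22 and stayed at the floor in KO22. The summed level was 61.3 and 57.7 CPM in WT and 24.5 and 22.4 CPM in N22. KO22 had 0 counts in 1 library and a single Zscan4d fragment in the other. WT with GSK-3484862 was the highest group of the series, N22 with GSK-3484862 came next, and neither overlapped any other group. The share of all genes with such a separation was not counted. The ratio to DMSO was 11.2 in WT (9.67 to 12.9) and 10.3 in N22 (8.19 to 13.0), whereas the added level was 54.2 CPM in WT and 21.2 CPM in N22.

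**Figure D1:**
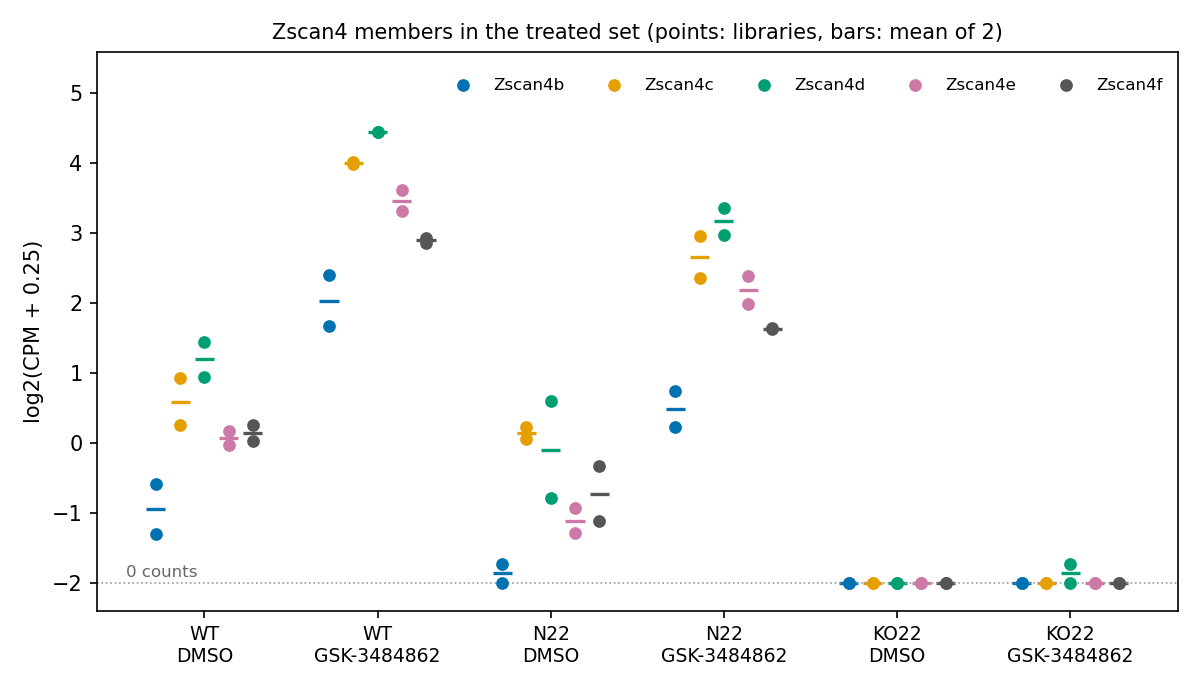
Level of each Zscan4 member as log2(CPM + 0.25) in the 12 libraries of the treated set, by genotype and treatment; points are libraries, short bars the mean of 2, and the dotted line is 0 counts. All members sit higher with GSK-3484862 in WT and N22, N22 sits below WT, and KO22 stays at 0 apart from 1 Zscan4d count.

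Each of the 5 members rose with GSK-3484862 in WT. Zscan4d, the member with the most counts, had 1.68 and 2.47 CPM with DMSO and 21.6 and 21.7 CPM with GSK-3484862. Zscan4c had 0.944 and 1.65 CPM against 15.6 and 16.0. Zscan4e had 0.734 and 0.875 CPM against 11.99 and 9.72. The 2 treatments did not overlap in any of these genes, and the libraries given GSK-3484862 lay close together for Zscan4c and Zscan4d. How many of all genes did not overlap was not counted. Zscan4f had 0.944 and 0.772 CPM against 7.04 and 7.38, and Zscan4b, the lowest member, 0.420 and 0.154 CPM against 5.06 and 2.93. In edgeR's quasi-likelihood test with Benjamini-Hochberg adjustment over 16641 genes, 5 of 5 members were called higher (adjusted p below 0.05), where 28.7% of all genes tested were. Zscan4b was tested only because of its counts with GSK-3484862, so its call adds nothing to them. It was also called with no filter on low counts. The log2 differences were 3.71 ± 0.50 (SE) for Zscan4b (adjusted p = 2.02e-09), 3.54 ± 0.24 for Zscan4c (1.04e-20), 3.31 ± 0.22 for Zscan4d (1.94e-15), 3.68 ± 0.28 for Zscan4e (2.79e-18) and 3.00 ± 0.31 for Zscan4f (6.64e-13). Their 95% intervals all overlap, and the median over all genes was 0.00.

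All 5 members also rose in N22, from a lower start. Zscan4d had 0.328 and 1.27 CPM with DMSO, the widest gap between libraries of this group, and 7.64 and 10.0 CPM with GSK-3484862. Zscan4c had 0.928 and 0.791 CPM against 7.52 and 4.91, and Zscan4e 0.273 and 0.158 CPM against 5.01 and 3.71. Zscan4f had 0.546 and 0.211 CPM against 2.86 and 2.83. All libraries given GSK-3484862 were above all DMSO libraries for each member, and again the share of all genes that did so was not counted. Zscan4b had a single count over the 2 DMSO libraries and 41 with GSK-3484862, a ratio of 43.5 that counting error alone places between 7.39 and 1761. All 5 members were called higher by edgeR, against 26.9% of all genes, with Zscan4b again tested only because of its counts with GSK-3484862. The log2 differences were 2.79 ± 0.28 for Zscan4c (adjusted p = 3.50e-13), 3.40 ± 0.29 for Zscan4d (1.68e-12), 4.25 ± 0.40 for Zscan4e (2.43e-14) and 2.85 ± 0.41 for Zscan4f (1.23e-08).

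In KO22, GSK-3484862 called 0 of 5 members, where 24.8% of all genes were called higher. With edgeR 0 members also had an unadjusted p below 0.05, and DESeq2 called 0 of 5. The members were tested here only because of their counts in WT and N22. At 0 or 1 counts over both KO22 arms no call was possible, so these tests add nothing to the counts. The only count was the single Zscan4d fragment, 0.0525 CPM in that library. No fold can be given, since both arms are at or under the floor of 3 counts. For the same reason the difference between the KO22 response and the other responses cannot be estimated from these counts. In the same comparison 7656 genes, or 46% of those tested, were called in either direction.

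Set against each other within GSK-3484862, all 5 members were lower in N22 than in WT. Both N22 libraries lay below both WT libraries for every member, though the share of all genes that did so was not counted. edgeR called 5 of 5 lower, where 4.6% of all genes were. Zscan4c had a log2 difference of -1.34 ± 0.19 (adjusted p = 2.07e-07), Zscan4d -1.27 ± 0.18 (3.52e-06), Zscan4e -1.30 ± 0.22 (1.08e-05), Zscan4f -1.32 ± 0.26 (0.000236) and Zscan4b -1.75 ± 0.40 (0.00166). The other members lay within 0.07 of each other on the log2 scale, and the Zscan4b interval (-2.55 to -0.94) covers all of them. Zscan4b lost its call without WT GSK-3484862 library 1 (adjusted p = 0.181) or N22 GSK-3484862 library 2 (0.0678). Summed, WT was 2.54 times N22 (2.35 to 2.76). Duxf3 itself had 37 counts in WT and 24 in N22 over 2 libraries each, a ratio of 1.48 with an interval from 0.861 to 2.58.

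With DMSO the members were also below WT in N22, on far fewer counts. N22 had 32 counts of Zscan4c against 50 in WT, 30 of Zscan4d against 80, 8 of Zscan4e against 31, 14 of Zscan4f against 33 and 1 of Zscan4b against 11. Every member was lower in both N22 libraries than in both WT libraries, but Zscan4c only by 0.928 against 0.944 CPM where they came closest. With 2 libraries in each group such a separation is weak, and its share over all genes was not counted. edgeR called 3 of 5 lower against 13.9% of all genes: Zscan4d (-1.36 ± 0.36, adjusted p = 0.0046), Zscan4e (-1.88 ± 0.55, 0.00637) and Zscan4b (adjusted p = 0.0396), the last on the single N22 count. Zscan4f (-1.18 ± 0.49, 0.0675) and Zscan4c (-0.59 ± 0.36, 0.247) were not called, and the Zscan4c interval runs from -1.32 to 0.14. The 3 calls did not hold in every omission of a library. Zscan4d lost its call without N22 DMSO library 1 (adjusted p = 0.177) or WT DMSO library 2 (0.0992), Zscan4e without N22 DMSO library 2 (0.102) or WT DMSO library 2 (0.0534), and Zscan4b without N22 DMSO library 1 (0.239), N22 DMSO library 2 (0.0658) or WT DMSO library 1 (0.332). Zscan4f gained one without N22 DMSO library 1 (0.0335).

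The response itself, tested as the difference between the GSK-3484862 effects in N22 and in WT, was called for 0 of 5 members, against 11.1% of all genes. No member had an unadjusted p below 0.05 in edgeR (0 of 5), and DESeq2 called 0 of the 1 member to which it gave an adjusted p. The differences (N22 minus WT) were -0.75 for Zscan4c (95% interval -1.58 to 0.09), 0.09 for Zscan4d (-0.76 to 0.94), 0.57 for Zscan4e (-0.68 to 1.82) and -0.15 for Zscan4f (-1.30 to 1.00). These intervals allow a response up to 1.58 lower or 1.82 higher on the log2 scale, so a like fold response was not shown. The sign of Zscan4d turned without N22 DMSO library 1 (-0.56), WT DMSO library 2 (-0.22) or N22 GSK-3484862 library 2 (-0.12), and that of Zscan4f without N22 DMSO library 1 (0.66).

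**Figure D2:**
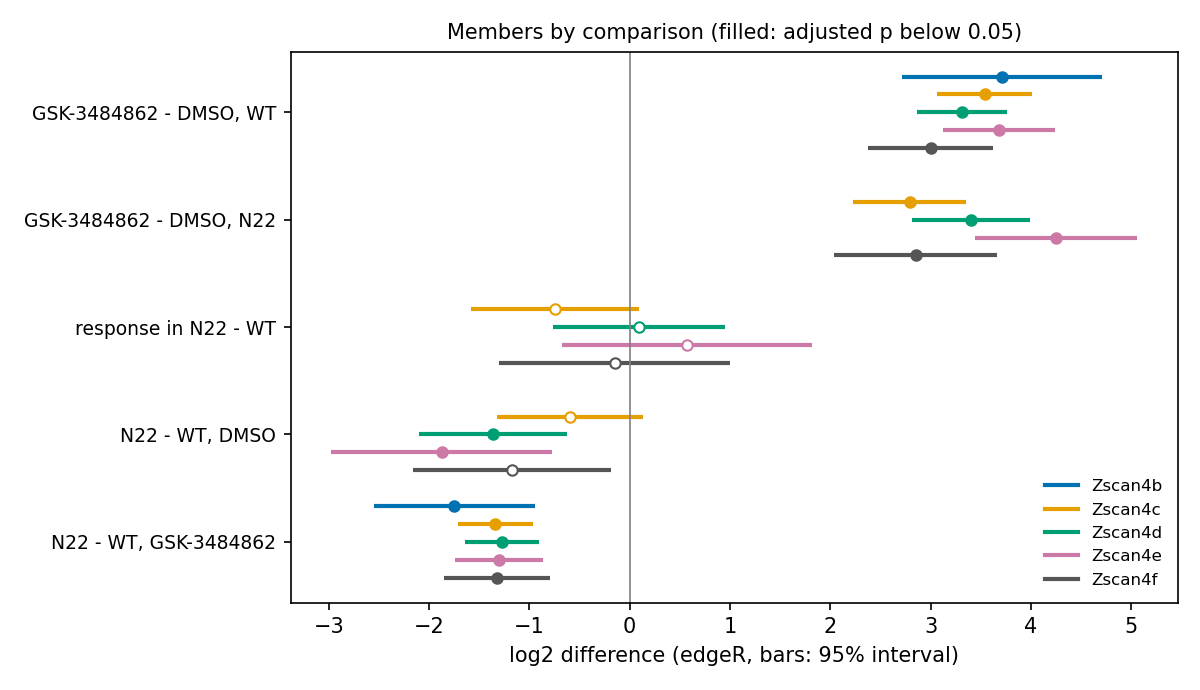
Log2 differences of the Zscan4 members with 95% intervals from edgeR, for the effect of GSK-3484862 in WT and N22, the difference between these effects, and N22 against WT within each treatment; filled points have an adjusted p below 0.05, and Zscan4b is shown only where both groups had over 3 counts. The effects of GSK-3484862 lie between 2.79 and 4.25, the N22 minus WT differences within GSK-3484862 between -1.75 and -1.27, and the intervals of the difference in response all cross 0.

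KO22 stood apart from both other lines at every member with usable counts. The members were tested against KO22 only because of their counts in WT and N22, so the calls given here add nothing to those counts. With DMSO, WT had 11 counts of Zscan4b, 50 of Zscan4c, 80 of Zscan4d, 31 of Zscan4e and 33 of Zscan4f against 0 in KO22, which makes them at least 3.55-fold (Zscan4b) to at least 25.8-fold (Zscan4d) higher in WT. edgeR called 5 of 5 lower in KO22 against 28.5% of all genes, and Zscan4b lost its call without WT DMSO library 1 (adjusted p = 0.0521). N22 exceeded KO22 with DMSO in 4 of 5 members (21.1% of all genes called higher), with adjusted p from 3.58e-07 (Zscan4c) to 0.00618 (Zscan4e). Zscan4e lost that call without KO22 DMSO library 2 (0.0522), and Zscan4b (1 count against 0) was not called (0.425). With GSK-3484862, 5 of 5 members were called lower in KO22 than in WT (10.1% of all genes) and 5 of 5 higher in N22 than in KO22 (11.7%). WT levels were at least 49.9-fold (Zscan4b) to at least 198-fold (Zscan4c) above KO22, and N22 levels at least 14.6-fold (Zscan4b) to at least 77.0-fold (Zscan4c), with Zscan4d, at 791 and 312 counts against 1, having ratios of 811 (145 to 32074) and 334 (59.4 to 13218). These 2 ratios rest on a single KO22 count and are not bounds.

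The untreated clones gave a less even picture. The family summed to 5.21, 5.20 and 4.70 CPM in E14, the level of WT with DMSO. The Dux-KO libraries had 0.258 (clone 15), 1.25 (clone 52) and 2.58 CPM (the library labelled clone 22). The Dux n=1 libraries had 2.30 (clone 17), 2.69 (clone 22), 0.759 (clone 31) and 0.258 CPM (clone 40). All 7 edited libraries were below all 3 E14 libraries, though the share of all genes that set E14 apart was not counted. The 2 edited groups overlapped along their whole range. E14 was 3.71 times Dux-KO by summed counts (2.87 to 4.85) and 3.36 times Dux n=1 (2.67 to 4.24), and Dux n=1 was 1.11 times Dux-KO (0.816 to 1.51). Without the library labelled clone 22, the Dux-KO mean was 0.752 ± 0.698 CPM (SD, n = 2) instead of 1.36 ± 1.16 (n = 3). By summed counts E14 was then 6.91 times Dux-KO (4.64 to 10.7), and Dux n=1 was 2.06 times Dux-KO (1.34 to 3.27). Both ratios rest on 27 Dux-KO counts in 2 libraries and, like the shares and 2-cell counts without that library, were chosen after seeing the data. Other measures also set E14 apart from the edited libraries. Mitochondrial genes took 2.75% to 2.99% of counts in E14 and 2.03% to 2.60% in the edited libraries. Fibroblast markers summed to 246 to 260 CPM in E14 and 320 to 433 CPM in the edited libraries, and trophoblast markers to 41.0 to 48.0 and 51.2 to 89.9 CPM. The part of these shifts in the Zscan4 difference was not tested.

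**Figure D3:**
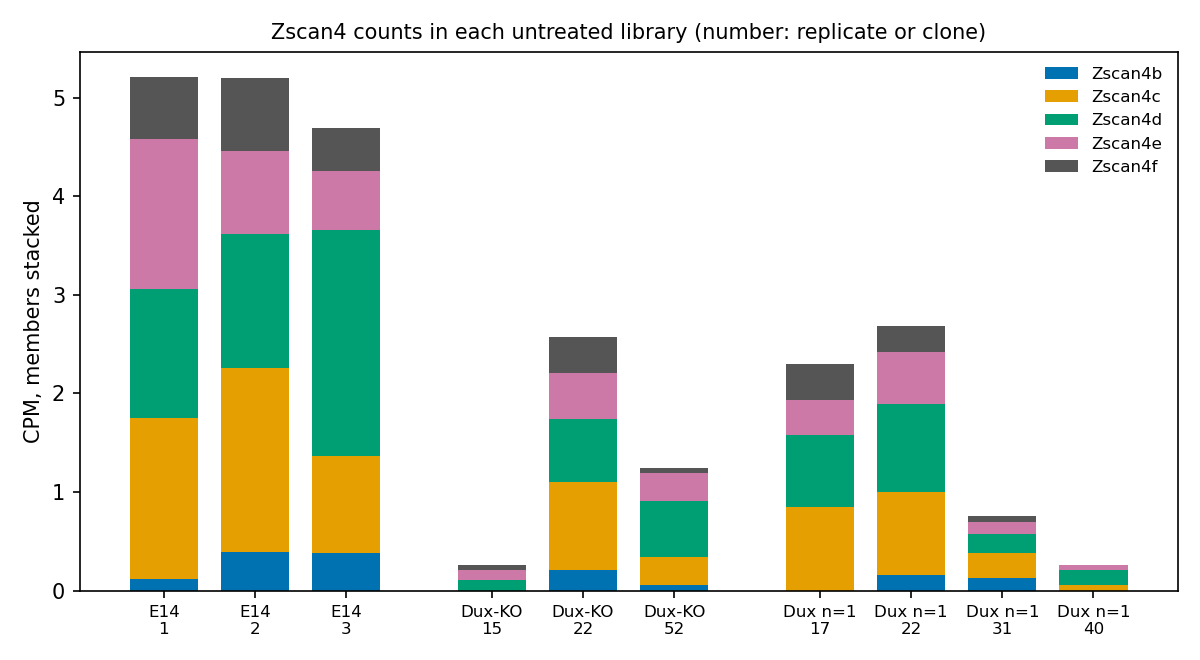
CPM of the 5 Zscan4 members, stacked, in each of the 10 untreated libraries, labelled by replicate or clone number. The E14 libraries reach 4.70 to 5.21 CPM, the Dux-KO libraries 0.258 to 2.58 and the Dux n=1 libraries 0.258 to 2.69.

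Single members followed the sum. Zscan4d had 1.30, 1.36 and 2.30 CPM in E14, 0.103, 0.631 and 0.566 in Dux-KO clones 15, 22 and 52, and 0.726, 0.896, 0.190 and 0.155 in Dux n=1 clones 17, 22, 31 and 40. Zscan4c had 1.64, 1.87 and 0.984 CPM in E14, 0, 0.894 and 0.283 in Dux-KO, and 0.847, 0.844, 0.253 and 0.0516 in Dux n=1, in the same order. Zscan4e had 1.53, 0.848 and 0.601 CPM in E14 against 0.103 to 0.473 in Dux-KO and 0.0516 to 0.527 in Dux n=1. For these 3 genes every E14 library was above every edited library, as it was for Zscan4f (0.437 to 0.735 CPM in E14 and at most 0.368 in an edited library), but not for Zscan4b (0.113 to 0.396 CPM against 0 to 0.210). The share of all genes that set E14 apart in this way was not counted, so the separation is not read as particular to Zscan4.

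Only Zscan4c, Zscan4d and Zscan4e passed the filter on low counts in the untreated set, Zscan4e through its E14 libraries alone. edgeR called 0 of these 3 in Dux-KO against E14, where 20.4% of 14796 genes were called, with log2 differences of -1.93 ± 0.93 for Zscan4c (adjusted p = 0.159), -1.96 ± 0.69 for Zscan4d (0.0626) and -1.81 ± 0.71 for Zscan4e (0.0903). 2 of the 3 (Zscan4d and Zscan4e) had an unadjusted p below 0.05, and DESeq2 called 1 of the 4 members to which it gave an adjusted p, Zscan4d (0.0351). When the library labelled Dux-KO clone 22 was left out, calls were made for Zscan4c (-3.46, adjusted p = 0.0423) and Zscan4f (-3.39, 0.0447), which then passed the filter, and not for Zscan4d (-2.38, 0.0591). Zscan4f passed it only through E14, the group where it was highest, so its call adds nothing to its counts. Over the alternatives the adjusted p of Zscan4d ran from 0.0351 to 0.211.

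In Dux n=1 against E14, edgeR called 0 of 3 (9.16% of all genes), at -1.62 ± 0.83 for Zscan4c (adjusted p = 0.22), -1.78 ± 0.62 for Zscan4d (0.087) and -1.91 ± 0.66 for Zscan4e (0.0832). Again 2 of 3 had an unadjusted p below 0.05, and DESeq2 called 1 of 3, Zscan4d (adjusted p = 0.0476). Dux n=1 and Dux-KO differed by 0.31 (95% interval -1.74 to 2.36) for Zscan4c, 0.17 (-1.35 to 1.70) for Zscan4d and -0.11 (-1.76 to 1.55) for Zscan4e. edgeR called 0 of 3, 0 had an unadjusted p below 0.05, DESeq2 called 0 of 5, and 0% of all genes were called. The intervals are wide enough to hold a difference of several fold either way, and each of these 3 signs turned when some single library was left out. Leaving out that labelled Dux-KO clone 22 gave differences of 1.85 for Zscan4c, 0.61 for Zscan4d and 0.52 for Zscan4e, and 0% of all genes were again called. The summed level differed 10.0 times between the lowest and the highest Dux-KO clone and 10.4 times among Dux n=1 clones. Without the library labelled clone 22, the 2 other Dux-KO clones differed 4.83 times. The labels name no second library of any untreated clone, so clone and genotype cannot be told apart within a library.

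Where the family had many counts, its make-up differed little between groups. Zscan4d held 36.3% of the Zscan4 counts in WT and 38.0% in N22 with GSK-3484862, Zscan4c 26.6% and 26.3%, Zscan4e 18.2% and 18.5%, Zscan4f 12.1% and 12.2%, and Zscan4b 6.71% and 4.99%. In untreated E14, with 270 counts, the shares were 33.0%, 29.6%, 19.6%, 11.9% and 5.93% in the same order, and in Dux-KO, with 76 counts, 31.6%, 28.9%, 21.1%, 11.8% and 6.58%. Without the library labelled clone 22, which held 49 of these counts, the Dux-KO shares were 44.4%, 18.5%, 25.9%, 7.41% and 3.70% of 27 counts. Within N22, the Zscan4d share differed more between libraries of 1 group than it did between WT and N22. It was 31.2% (exact binomial 95% interval 26.8% to 36.0%) and 44.8% (39.9% to 49.7%) in the 2 N22 libraries given GSK-3484862, 15.8% (6.02% to 31.3%) and 51.1% (36.1% to 65.9%) in the 2 given DMSO, and 35.2% and 37.5% in WT with GSK-3484862.

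**Figure D4:**
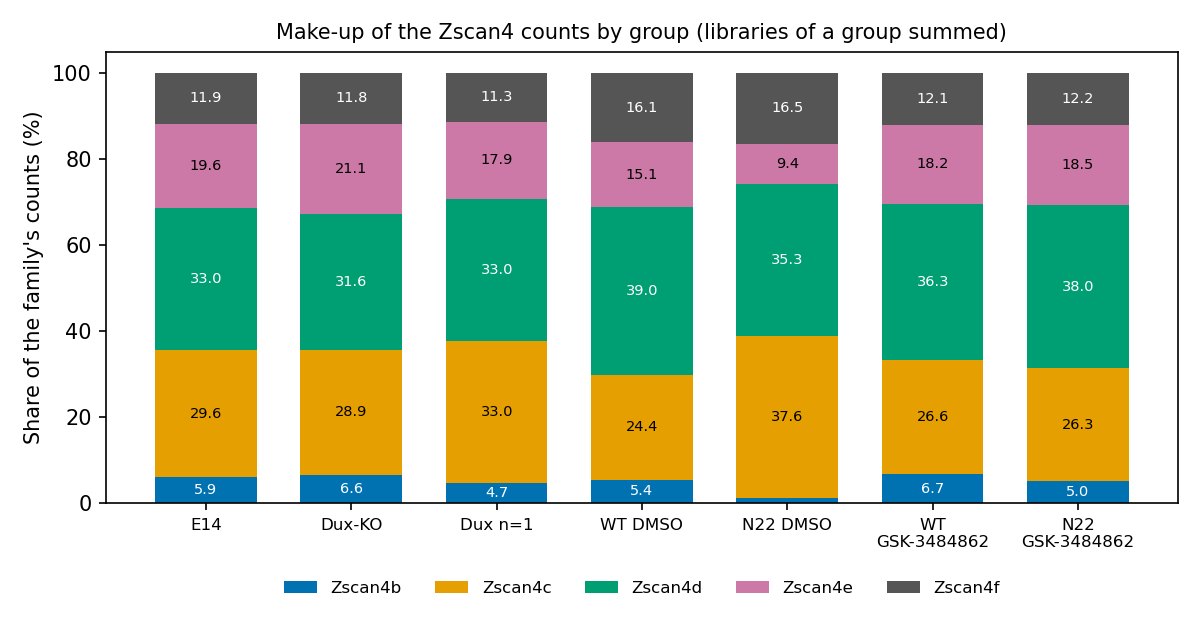
Share of all Zscan4 counts held by each member (percent, libraries of a group summed) in the 7 groups with more than 1 Zscan4 count. Zscan4d and Zscan4c together hold 60.5% to 72.9% of the counts in each group, and N22 with DMSO, which rests on 85 counts, departs most.

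Per kilobase of counted exon, Zscan4d was also the highest member with GSK-3484862, at 9.41 CPM per kb in WT and 3.85 in N22. Zscan4e (7.15 and 2.87) and Zscan4c (6.88 and 2.70) followed and did not differ beyond the spread of their libraries, and Zscan4f (2.97 and 1.17) and Zscan4b (2.28 and 0.672) were lowest. These levels per length do not allow for the unequal unique shares given above.

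Across all groups, the summed family was highest in WT with GSK-3484862 (59.5 ± 2.51 CPM, SD, n = 2) and next in N22 with GSK-3484862 (23.4 ± 1.46, n = 2). WT with DMSO (5.32 ± 0.847, n = 2) and E14 (5.04 ± 0.292, n = 3) followed and overlapped. N22 with DMSO (2.28 ± 0.286, n = 2) lay within the range of Dux n=1 (1.50 ± 1.18, n = 4), which overlapped Dux-KO (1.36 ± 1.16, n = 3), and KO22 was at 0 to 0.0525 CPM under either treatment. The untreated Dux-KO libraries thus held 5 to 49 Zscan4 counts, where the 4 KO22 libraries of the treated set held 0 or 1. The untreated library with 49, labelled Dux-KO clone 22, shares its clone number with KO22. It also held 5 Duxf3 counts, against 0 in each KO22 library. The titles do not say whether they are the same clone, and the cause of the gap was not tested.

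Most other genes of the 2-cell embryo also rose with GSK-3484862 in WT and N22. A list of 50 such genes, Zscan4 left out, had 35 tested members in the treated set, and with GSK-3484862 33 of 35 were called higher and 0 lower in WT (28.7% and 28.1% of all genes), with a median log2 difference of 3.35 against 0.00 over all genes. In N22 33 of 35 were called higher and 1 lower (Zfp280b, -0.28), with a median of 3.64, or 3.41 with the 6 genes at 0 counts in DMSO set to their lower bound. In KO22 9 of 35 were called higher and 1 lower (24.8% and 21.2% of all genes), so the share called higher was near that of all genes. Listed genes at 0 counts in every KO22 library, such as Gm5662, Gm21761, Gm2016 and Gm20767, could not be called there. The Zscan4 differences in WT (3.00 to 3.71) lay within the range of the list, in which Gm21761 rose by 3.69 ± 0.17, Ddit4l by 2.57 ± 0.14 and Zfp750 by 2.48 ± 0.15. Between N22 and WT under GSK-3484862, 14 of the 35 were called lower and 2 higher (Ddit4l and Trim43b), where 4.6% and 5.05% of all genes were, with a median of -0.85. The lowest 3 by p were Gm21761 (-0.93 ± 0.13), Gm20767 (-1.43 ± 0.24) and Usp17le, a ubiquitin peptidase gene (-0.83 ± 0.16). The 5 Zscan4 differences, -1.75 to -1.27, lay below the list's median. The lowest was that of Zscan4b, the member with the fewest counts, and 1 listed gene, Tcstv3 (-2.42 ± 0.55), lay below it. The other members lay at -1.34 to -1.27. Listed genes below these were also Sp110 (-1.70), Tmem92 (-1.59), Usp17ld (-1.49), Tdpoz4 (-1.45), Gm4340 (-1.44), Gm20767 and B020004J07Rik (-1.38). These comparisons share WT and N22 libraries with those given for the members.

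**Figure D5:**
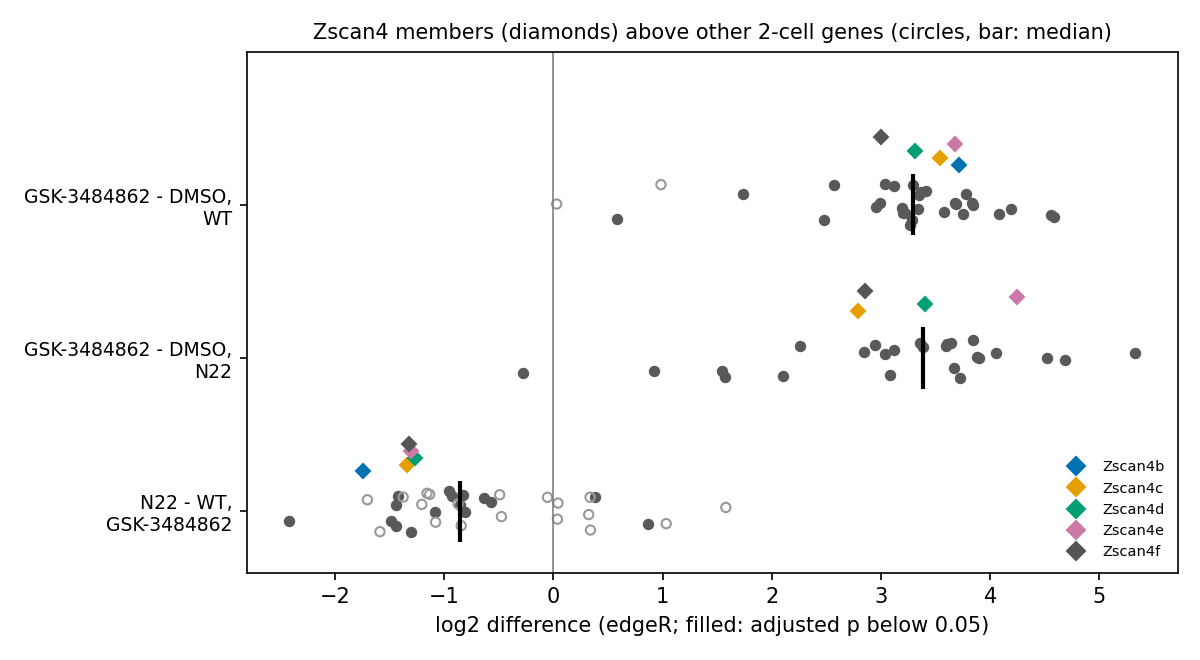
Log2 differences of the Zscan4 members (diamonds) and of other 2-cell genes with over 3 counts in both groups (circles, vertical bar at their median) for GSK-3484862 against DMSO in WT and in N22 and for N22 against WT with GSK-3484862; filled symbols have an adjusted p below 0.05. Members sit among the other genes in the upper rows and to the left of the median in the lowest row.

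In the untreated set 14 of the 2-cell genes were tested, and 2 were called lower in Dux-KO (11.1% of all genes) and 3 in Dux n=1 (4.28%), with medians of -1.08 and -1.51. Leaving out the Dux-KO library labelled clone 22, 5 of 15 were called lower in Dux-KO (12.4% of all genes), with a median of -1.77. The genes whose profile over the 22 libraries was most like that of the summed family were counted by the root mean square (RMS) difference of centred log2(CPM + 0.25) among 16636 genes. They were Gm5662 (RMS 0.563), Gm21761 (0.576), Gm2016 (0.679), Usp17le (0.683), Gm8994 (0.706), Gm8300 (0.752), Usp17lb (0.956), Gm20767 (1.01), Gm8332 (1.01) and Usp17la (1.08). Gm5662 had 40 to 45 counts in E14, 3 to 28 in Dux-KO and 2 to 23 in Dux n=1, 0 in all 4 KO22 libraries, and with GSK-3484862 it had 308 and 358 in WT and 208 and 216 in N22. With a pseudocount of 1, 9 of these 10 were again among the 10 most alike. Several of them belong to multi-copy families, in which reads shared between copies were not counted either.

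Of 30 other genes with a SCAN domain tested, 10 were called higher and 10 lower with GSK-3484862 in WT, where 28.7% and 28.1% of all genes were, with a median of -0.15, and the 3 with the smallest p were Zkscan17 (-0.76 ± 0.05), Peg3, an imprinted gene (0.66 ± 0.05), and Zscan10, a gene of pluripotent cells (0.43 ± 0.04). Between N22 and WT with GSK-3484862, 1 of 30 was called higher (Zscan10, 0.18 ± 0.04, adjusted p = 0.00313) and 0 lower, where 5.05% and 4.6% of all genes were. Of 20 tested genes of telomere maintenance and recombination, 3 were called higher and 13 lower with GSK-3484862 in WT (28.7% and 28.1% of all genes), with a median of -0.17. Blm, a DNA helicase (-0.58 ± 0.05), and Terf1, a telomere-binding protein (-0.38 ± 0.04), fell, and Smc1b, a meiotic cohesin subunit, rose (1.18 ± 0.14). In KO22, where Zscan4 stayed at the floor, 2 of the 20 were called higher and 12 lower (24.8% and 21.2% of all genes), with a median of -0.20.

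Of 17 tested genes known to act upstream of Zscan4, Duxf3 among them, 7 were called higher and 5 lower with GSK-3484862 in WT, where 28.7% and 28.1% of all genes were, with a median of -0.04. Dppa2, an activator of Dux, rose by 0.67 ± 0.05, while Chaf1b, a subunit of the histone chaperone CAF-1 that restrains the 2-cell-like state, fell by 0.89 and Kdm1a, a histone demethylase, by 0.51. In KO22, 3 of the 17 were called higher and 7 lower with GSK-3484862 (24.8% and 21.2% of all genes), Chaf1b among the latter (-0.37 ± 0.05). The part of these genes in the Zscan4 differences was not tested. Between N22 and WT with GSK-3484862, 1 of 17 was called higher, Trp53, encoding the p53 transcription factor (0.14 ± 0.03, adjusted p = 0.00102), and 0 lower, where 5.05% and 4.6% of all genes were. With DMSO, 7 were higher in N22 and 3 lower (11.5% and 13.9% of all genes), Dppa2 among the former at 0.50 ± 0.05. Primitive endoderm markers, another state these cultures can hold, summed to 68.1 and 72.8 CPM in WT and 39.4 to 41.0 in N22 with GSK-3484862, and to 14.7 to 39.3 CPM with DMSO, and their part in the Zscan4 differences was not tested. In KO22 with GSK-3484862, where Zscan4 was at the floor, they reached 65.9 to 66.3 CPM.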

How the data were processed

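The submitters' processing notes list fastp 0.23.2 for trimming, HISAT2 2.1.0 for alignment (build GRCm38) and featureCounts 2.0.1 for counting. What the authors deposited are raw fragment counts per Ensembl 84 gene, per the file headers, whose commands ask for paired reads in 22 of 22 files and for multi-mapping reads or strand in 0. GENCODE M21 named 47224 of 47729 identifiers. CPM are counts scaled to the library total. The untreated and the treated set were each fitted by the robust quasi-likelihood model of edgeR 4.0.16 (R 4.3.3), on genes kept by filterByExpr at a minimum count of 10, with TMM factors and no replicate term, and 15 comparisons were adjusted by Benjamini-Hochberg over all genes tested. Adjusted p-values are from edgeR unless DESeq2 1.42.0 is named. Folds against a group at 0 use 3 counts for the group and are lower bounds. Of the listed genes, those with the smallest p were named, up to 3 per list and comparison, beside the 5 members and the 10 genes most like them. Exceptions, chosen after their values were seen, are Zfp280b, Ddit4l and Trim43b where a count of calls names them, and Dppa2. Tcstv3 and the other listed genes named as lying below Zscan4 members were chosen in the same way. Members, lists and tests were chosen with earlier results of these data known. The fit was tested on simulated data. Alternatives were RLE factors, no filter, only the compared groups, DESeq2, a replicate block and each library left out in turn.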

Additional observations from a re-analysis of the deposited data

How the results depend on the processing

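In the treated set, the members called with GSK-3484862 were 5 in WT and 5 in N22 under each alternative run. With a replicate block the counts of members called were those of the fit without it in all 12 comparisons (5 in WT, 5 in N22, 0 in KO22, 3 for N22 against WT with DMSO and 5 with GSK-3484862). Libraries of 1 number did not deviate together (correlations of -0.02 to 0.03 over 15 pairs, 0 above 0.1), so the numbers are not taken as pairs, and in the untreated set they are clone names.

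Dux-KO against E14 called 1 member (Zscan4d) with no filter, with only the compared groups or with DESeq2, and 0 to 2 when a library was left out. The 2, Zscan4c and Zscan4f, came without the library labelled Dux-KO clone 22, and Zscan4f then passed the filter only through E14. That omission also moved the E14 ratio from 3.71 to 6.91 and the 2-cell genes called lower from 2 to 5. Dux n=1 against E14 called 1 with DESeq2. N22 against WT called 1 to 2 members with DMSO on omissions and, with GSK-3484862, 4 to 5 on omissions and 2 with DESeq2, which gave an adjusted p to only 2. N22 against KO22 with DMSO called 1 with only the compared groups, where 1 member passed the filter, and 3 to 4 on omissions. KO22 against WT with DMSO called 4 to 5. For GSK-3484862 in KO22, no member passed the filter with only the compared groups, so no value was had.

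Signs reversed for Dux n=1 against Dux-KO: Zscan4c without Dux-KO clone 15 (-0.28), Dux n=1 clone 17 (-0.06) or 22 (-0.06), Zscan4d likewise (-0.30, -0.06 and -0.27), and Zscan4e without Dux-KO clone 22 (0.52), Dux n=1 clone 31 (0.09) or 40 (0.26). Over all omissions they ran from -0.28 to 1.85, -0.30 to 0.61 and -0.66 to 0.52. The difference in response between N22 and WT reversed for Zscan4d (-0.56, -0.22 and -0.12) and Zscan4f (0.66) in the omissions named with it, with ranges of -0.56 to 1.37 and -0.68 to 0.66. The cause was not tested.

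Summed levels on TMM library sizes were 54.5 CPM in WT and 21.7 in N22 with GSK-3484862 and 5.43 in E14. That puts the response to GSK-3484862 0.096 lower in WT and 0.11 lower in N22 on the log2 scale. Without Zscan4d the summed CPM were 37.9, 14.6 and 3.39, and 3.25 (WT) and 1.48 (N22) with DMSO. Omissions moved the Dux-KO mean between 0.752 and 1.91 CPM and the Dux n=1 mean between 1.11 and 1.92.

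Over all genes, DESeq2 called 2711 for N22 against WT with DMSO (edgeR 4221), 823 with GSK-3484862 (1606), 1026 for their difference in response (1844), 2205 for KO22 against WT with GSK-3484862 (3728) and 2566 for N22 against KO22 with it (4087). For Dux n=1 against E14, 1355 genes became 2450 with only the compared groups, 2426 with DESeq2 and 24 to 1237 on omissions, and Dux-KO against E14 gave 931 to 3572 (3016 with all libraries). Adding other annotated Zscan4 loci was not run, since the counted annotation holds 5. Depth limits Zscan4b most, at 0 to 8 counts in each library not given GSK-3484862.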
